A study of Mus musculus with 14 samples.

Results

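Genes of the extracellular matrix and of stromal cells were followed in primary mouse bone marrow-derived macrophages (pBMDMs) that had been kept for 24 h in culture supernatants of fibroblasts. The 38 genes were chosen by name from the 55414 genes of the count table and comprise collagens, other matrix proteins, matrix-modifying enzymes, secreted modulators, stromal surface markers and contractile genes. The pBMDMs were differentiated from marrow of wildtype C57BL/6N mice. The supernatants came from the Pfa1 line of mouse embryonic fibroblasts (MEFs). Treatment of Pfa1 cells with 4-hydroxytamoxifen (4OHT) removes Gpx4, the enzyme that detoxifies lipid peroxides, and the cells then die by ferroptosis. The groups were supernatant of untreated MEFs (ctrl), of MEFs given 4OHT (4OHT, labelled Tam), of MEFs given 4OHT with the ferroptosis inhibitor Ferrostatin-1 (4OHT+Fer1), of MEFs given Ferrostatin-1 alone (Fer1), and fresh medium without contact to MEFs (medium). Each supernatant group had 3 samples, numbered as replicates 1 to 3, and medium had replicates 1 and 2, which gave 14 samples. The supernatants derived from a single MEF line, and all comparisons against ctrl, 4OHT or medium share those samples.

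The extracellular matrix is the protein scaffold between cells. Fibrillar collagens, secreted as procollagen and crosslinked by lysyl oxidases, carry tension, collagen IV forms the sheet of basement membranes, and glycoproteins and proteoglycans such as fibronectin, thrombospondin and versican link the scaffold to cell surfaces and growth factors. Fibroblasts and other stromal cells make most of the fibrillar matrix, and smooth muscle actin, transgelin and caldesmon mark contractile stromal cells, whereas macrophages are known to secrete matrix-associated proteins such as fibronectin, thrombospondin-1 and versican and to take up and degrade matrix.

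Libraries were read from the 3′ end of transcripts, so that counts did not scale with gene length, and held 7823028 to 11052333 counts per sample (median 9490448.5). Values are given as CPM, counts relative to a library's total after TMM scaling. A limit of 3 counts was set for detection, which corresponded to 0.272 to 0.381 CPM. This limit covers counting error only. Groups were compared with the quasi-likelihood test of edgeR, and p-values were adjusted by Benjamini-Hochberg over the 12851 genes that passed a filter on low counts (edgeR adjusted p). A gene was called when its absolute log2 fold change exceeded 1 at an edgeR adjusted p below 0.05. The 9 macrophage markers (among them Adgre1, Csf1r and Cd68) summed to 21800 to 46800 CPM and were all tested. Of 15 fibroblast markers that are not among the 38 genes, 5 were tested, their sum was 4.14 to 17.2 CPM, and Dpt, Meox2 and Tcf21 were at 0 in every sample. In these bulk samples, fewer cells of a type and less RNA per cell cannot be told apart, and which cells held a transcript was not measured.

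By level, the 38 genes fell into 3 classes. A mean of at least 10 CPM over the 14 samples was found for 10 genes, which were Igfbp4, Tpm1, Thbs1, Sparc, Cald1, Col1a2, Acta2, Col1a1, Fn1 and Bgn. A further 26 genes lay under 10 CPM, of which 23 passed the filter and were tested. Lum and Thy1 had at most 3 counts in any sample. Hence 33 of the 38 genes were tested, and counts below refer to these 33.

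Promoter sequences are shown for 6 genes that are described in detail here and for which an entry was available. Vcan and Grem1 were called between 4OHT and ctrl, while Col1a2, Sparc, Cald1 and Acta2 were called in replicate 3 against replicate 2, as was Grem1, and in ctrl against medium, as was Vcan. They are the 120 bases before the annotated start, 5′ to 3′ on the strand of the gene, from RefSeq on GRCm38.p6. Capitals mark the letters CCAAT or their reverse complement.
Vcan, chr13:89742513-89742632, minus strand: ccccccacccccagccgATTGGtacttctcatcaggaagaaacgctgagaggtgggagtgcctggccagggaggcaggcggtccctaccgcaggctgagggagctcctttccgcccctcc
Grem1, chr2:113758649-113758768, minus strand: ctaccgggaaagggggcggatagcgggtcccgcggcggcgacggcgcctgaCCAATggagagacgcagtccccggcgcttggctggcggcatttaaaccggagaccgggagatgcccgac
Col1a2, chr6:4505498-4505617, plus strand: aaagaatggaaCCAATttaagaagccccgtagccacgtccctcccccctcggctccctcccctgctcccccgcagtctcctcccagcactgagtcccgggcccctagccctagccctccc
Cald1, chr6:34598384-34598503, plus strand (the upstream of 2 listed starts): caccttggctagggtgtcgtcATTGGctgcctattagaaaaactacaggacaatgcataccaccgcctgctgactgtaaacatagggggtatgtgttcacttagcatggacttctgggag
Cald1, chr6:34709324-34709443, plus strand (the downstream start): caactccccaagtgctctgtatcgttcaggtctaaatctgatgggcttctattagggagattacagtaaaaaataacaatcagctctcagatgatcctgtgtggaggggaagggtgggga
Sparc, chr11:55420081-55420200, minus strand: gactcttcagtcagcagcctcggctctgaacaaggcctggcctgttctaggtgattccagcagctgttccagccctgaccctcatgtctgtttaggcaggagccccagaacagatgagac
Acta2, chr19:34255374-34255493, minus strand: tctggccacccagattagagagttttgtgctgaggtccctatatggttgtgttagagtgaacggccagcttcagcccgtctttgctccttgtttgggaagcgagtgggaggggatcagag
The windows of Vcan, Grem1, Col1a2 and the upstream Cald1 start held the letters, at 103, 69, 109 and 99 bases before the start, and those of the downstream Cald1 start, Sparc and Acta2 did not. In windows that also took in bases further upstream and after the start, CCAAT on either strand was found in 9 of the 28 promoters listed for 25 of the 38 genes (32.1%), against 37.4% of 32851 promoters of the same length. TATAAA was found in 4 (14.3%, against 13.6%), TGANTCA in 2 (7.14%, against 7.81%) and the CArG box, a motif known from contractile genes, in 1 (Myl9, 3.57%, against 1.63%). The CArG box was searched as CC, 6 letters of A or T and GG. Stretches that differ by 1 letter, such as that in the Acta2 window, were not counted, and Tagln had no entry. These shares lay near those of all promoters. A match describes the letters and not a site.

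Igfbp4, which binds insulin-like growth factors, was the most abundant of the genes, with 246 to 623 CPM (median 381 CPM) over all samples. Tpm1, a tropomyosin that stabilises actin filaments in many cell types, had 75.8 to 119 CPM (median 92.4 CPM). The levels of Igfbp4 were 255 and 281 CPM in medium, 327, 400 and 489 CPM in ctrl, 362, 329 and 623 CPM in Fer1, 246, 332 and 539 CPM in 4OHT+Fer1 and 494, 433 and 411 CPM in 4OHT (replicates in numerical order here and throughout). All samples of ctrl, Fer1 and 4OHT lay above both medium samples, 4OHT+Fer1 replicate 1 lay below them, and the 4 supernatants overlapped. Tpm1 had 94.5 and 94.2 CPM in medium, 90.5, 78.3 and 77.2 CPM in ctrl, 75.8, 82.2 and 103 CPM in Fer1, 103, 96.1 and 99.9 CPM in 4OHT+Fer1 and 81.5, 76.8 and 119 CPM in 4OHT. Neither gene was called in any of the comparisons made, and Tpm1 had an unadjusted p above 0.05 in each of them. Igfbp4 was highest in replicate 3 in ctrl, Fer1 and 4OHT+Fer1, with log2 fold changes of 0.58 against replicate 1 and 0.48 against replicate 2 (edgeR adjusted p = 0.0639 and 0.137).

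The stromal surface markers Thy1, Pdgfra and Pdgfrb and the proteoglycan genes Lum and Dcn were at the other end of the scale. Thy1, a surface glycoprotein of fibroblasts and T cells, had 1 count in all 14 samples together, and Lum, a small collagen-binding proteoglycan, had 6. Their zeros allow up to 0.272 to 0.381 CPM, depending on the sample. Pdgfra, the receptor that marks many fibroblasts, reached at most 0.441 CPM, and Dcn, which encodes decorin, at most 1.01 CPM. Pdgfrb, a receptor of pericytes and fibroblasts, had 3.26 CPM in 4OHT replicate 1 and at most 1.01 CPM in each of the other samples. None of these 5 genes passed the filter, and differences between groups were not detectable in them at this depth. Type I collagen and contractile transcripts were measured at 5.07 to 75.6 CPM (Col1a1, Col1a2, Cald1 and Acta2) in libraries where Lum and Thy1 were at or under the 3-count limit. The 15 fibroblast markers that are not among the 38 genes summed to 4.14 to 17.2 CPM in the same libraries. Which cells held these transcripts was not measured.

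Among the 33 genes tested, 3 were called between 4OHT and ctrl (9.09%, against 1.11% of all genes tested). Vcan and Grem1 were higher in pBMDMs exposed to ferroptotic supernatant, and Ccdc80 was lower. Thbs1 was higher in each replicate and missed the threshold. Against 4OHT+Fer1, in which Ferrostatin-1 blocks the death of the MEFs, 5 genes were called (15.2%, against 1.03% of all genes). These were the same 3 genes with the same directions, Thbs1, which was higher in 4OHT, and Col1a1, which was lower. The median log2 fold change of the 33 genes was 0.42 against ctrl and -0.05 against 4OHT+Fer1, beside 0.01 and 0.00 over all genes.

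Vcan (ENSMUSG00000021614, GRCm38 chromosome 13, 89655312 to 89742509, minus strand) encodes versican, a large chondroitin sulfate proteoglycan that binds hyaluronan. It had 22.8, 24.6 and 18.1 CPM in 4OHT and 3.44, 2.31 and 8.93 CPM in ctrl. The levels were 4.81, 2.97 and 5.11 CPM in 4OHT+Fer1, 4.16, 3.13 and 5.5 CPM in Fer1, and 14.1 and 16.3 CPM in medium. Every 4OHT sample lay above every other sample, the medium samples came next, and ctrl, 4OHT+Fer1 and Fer1 overlapped. The log2 fold change was 2.32 (standard error 0.36) against ctrl and 2.42 (standard error 0.36) against 4OHT+Fer1, with edgeR adjusted p = 0.0126 and 0.0122. Within replicates 1, 2 and 3 the difference of log2 CPM from ctrl was 2.66, 3.31 and 1.00, so that replicate 3 moved least. Antisense to Vcan, the annotation lists Gm16318 and Gm4117, and the strand setting of the counting was not given in the sources used here.

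Thbs1 (ENSMUSG00000040152, chromosome 2, 118111876 to 118127133, plus strand) encodes thrombospondin-1, a secreted glycoprotein that binds CD36 and CD47 and activates latent TGF-beta. Its level was 76.7, 86.7 and 32 CPM in 4OHT, 21.4, 17.5 and 28.2 CPM in ctrl and 11, 7.75 and 18.5 CPM in 4OHT+Fer1. Fer1 had 22.7, 14.9 and 26.7 CPM and medium 74.6 and 84 CPM. In replicates 1 and 2 the ferroptotic supernatant left Thbs1 at the level of fresh medium, whereas 4OHT replicate 3 lay just above the ctrl samples. Against 4OHT+Fer1 the log2 fold change was 2.47 (standard error 0.40, edgeR adjusted p = 0.0135). Against ctrl it was 1.61 (standard error 0.38), which was not called (edgeR adjusted p = 0.0649). Without 4OHT replicate 3 it was 2.13 and was called (edgeR adjusted p = 0.00114). It was also called by DESeq2 (adjusted p = 0.0016) and without a filter on low counts (edgeR adjusted p = 0.00379). Over all 22 alternatives the adjusted p lay between 0.00114 and 0.827. Thbs1 overlaps Gm29233 on the opposite strand.

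Grem1 (ENSMUSG00000074934, chromosome 2, 113746164 to 113758646, minus strand) encodes gremlin-1, a secreted antagonist of bone morphogenetic proteins. It had 10.6, 3.8 and 19.2 CPM in 4OHT, 3.04, 0.803 and 3.53 CPM in ctrl, 3.45, 1.8 and 4.4 CPM in 4OHT+Fer1, 2.78, 1.35 and 5.28 CPM in Fer1, and 6.98 and 1.44 CPM in medium. Here 2 patterns met. Each 4OHT sample exceeded the ctrl and the 4OHT+Fer1 sample of its own number, and replicate 2 was the lowest sample of each group. Because of the second pattern, the 3.8 CPM of 4OHT replicate 2 lay under the 4.4 CPM of 4OHT+Fer1 replicate 3. The log2 fold change was 2.14 (standard error 0.30) against ctrl and 1.65 (standard error 0.29) against 4OHT+Fer1, with edgeR adjusted p = 0.00898 and 0.0241.

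Ccdc80 (ENSMUSG00000022665, chromosome 16, 45093402 to 45128077, plus strand), which encodes a secreted matrix-associated protein, was the gene that was lower. It had 0.947, 0.362 and 1.01 CPM in 4OHT. It had 3.64, 3.01 and 4.74 CPM in ctrl, 4.07, 2.02 and 8.69 CPM in 4OHT+Fer1, 3.87, 1.15 and 9.79 CPM in Fer1, and 5.71 and 3.11 CPM in medium. All 3 4OHT samples lay below all 11 others. The log2 fold change was -2.40 (standard error 0.45) against ctrl, -2.55 (standard error 0.44) against 4OHT+Fer1 and -3.00 (standard error 0.485) against medium, with edgeR adjusted p = 0.0248, 0.021 and 0.00571. Its lowest count was 4, near the 3-count limit.

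Col1a1 (ENSMUSG00000001506, chromosome 11, 94936224 to 94953042, plus strand), the alpha-1 chain of type I collagen, had 12.1, 5.07 and 13 CPM in 4OHT and 27.9, 6.9 and 41.5 CPM in 4OHT+Fer1. The corresponding levels were 16.9, 5.83 and 17.2 CPM in ctrl, 22, 6.57 and 40.9 CPM in Fer1, and 33.6 and 12.1 CPM in medium. Each 4OHT sample was lower than the 4OHT+Fer1 sample of its number, although the groups overlapped. The log2 fold change against 4OHT+Fer1 was -1.14 (standard error 0.25, edgeR adjusted p = 0.0456). That against ctrl was -0.36 (standard error 0.25, adjusted p = 0.703), which was not called.

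**Figure D1:**
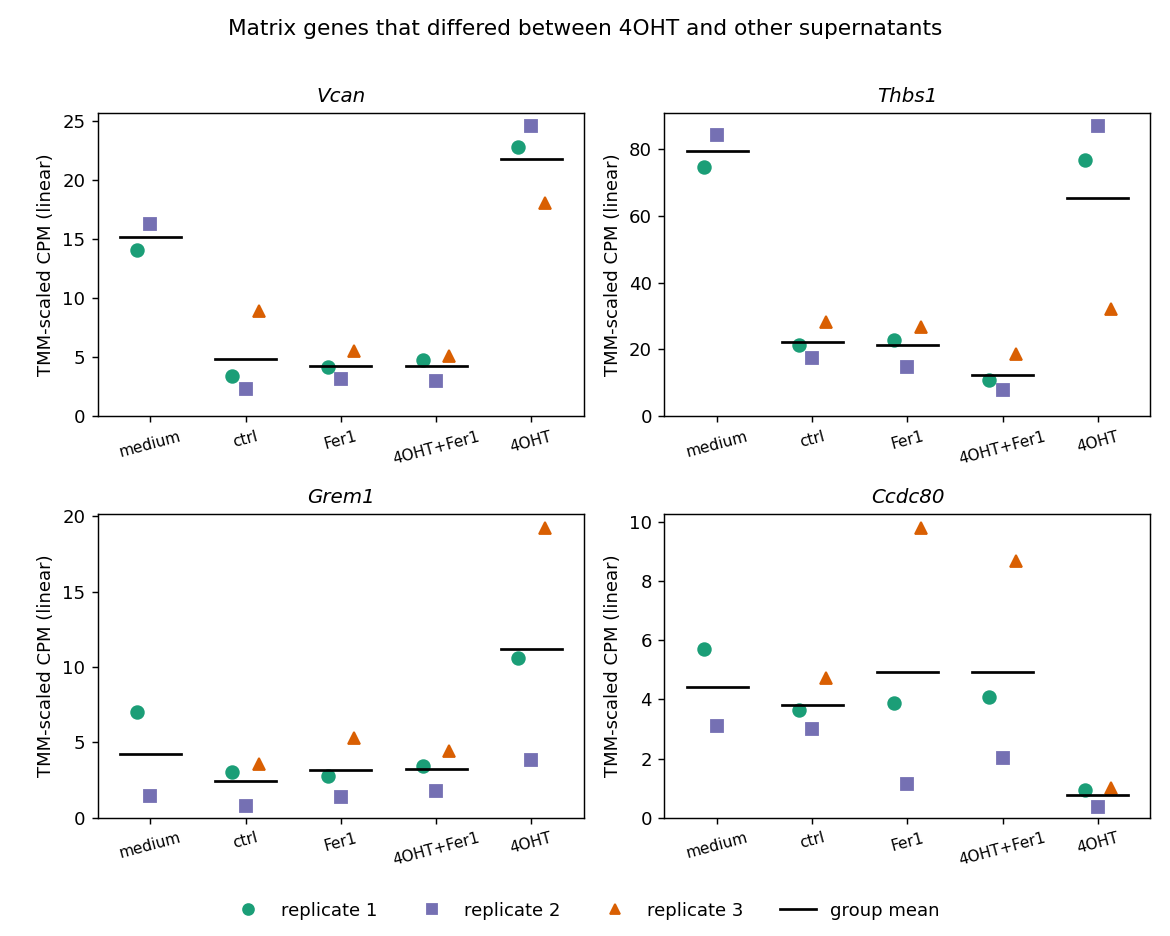
TMM-scaled CPM (linear axis from 0) of Vcan, Thbs1, Grem1 and Ccdc80 in the 5 groups, with 1 point per sample, colour and shape for the replicate number, and a line at the group mean. The 3 Vcan points of 4OHT lie at 18.1 to 24.6 CPM above all others, the 3 Ccdc80 points of 4OHT lie at or under 1.01 CPM below all others, and the 4OHT replicate 3 point of Thbs1, at 32 CPM, stands apart from the other two.

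No marker of another cell type was called between 4OHT and ctrl by edgeR, although point estimates of the fibroblast and neutrophil markers were higher in 4OHT. The 5 tested fibroblast markers were all positive (median log2 fold change 0.90, 2 at an unadjusted p under 0.05), and so were the 3 tested neutrophil markers (median 0.81, 1 at an unadjusted p under 0.05). The summed fibroblast markers were 17.2, 4.62 and 14.9 CPM in 4OHT and 8.3, 4.62 and 8.38 CPM in ctrl. They were thus higher in 4OHT in replicates 1 and 3 and equal in replicate 2. The summed neutrophil markers were 16.2, 13 and 3.41 CPM in 4OHT, 8.3, 8.94 and 2.21 CPM in ctrl and 5.33, 9.66 and 2.76 CPM in 4OHT+Fer1. The summed macrophage markers were 46800, 31600 and 31200 CPM in 4OHT and 30600, 21800 and 25200 CPM in ctrl, higher in each replicate. Endothelial markers summed to 44.2, 28.8 and 13 CPM in 4OHT and 40.2, 26.3 and 12.5 CPM in ctrl. Megakaryocyte and platelet markers summed to 401, 381 and 242 CPM in 4OHT and 235, 260 and 413 CPM in ctrl. The part of these cell types in any of the calls of 4OHT against ctrl or 4OHT+Fer1 was not tested.

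These calls rested on few samples. Between 4OHT and ctrl, 0 of the 33 genes were called without replicate 1 or without replicate 2, and 1 (Grem1) without ctrl replicate 1, ctrl replicate 2, 4OHT replicate 1 or 4OHT replicate 2. In those fits the edgeR adjusted p of Vcan was 0.067, 0.0742, 0.0643 and 0.0505, and that of Ccdc80 was 0.0785, 0.0877, 0.0797 and 0.0911. Ccdc80 was also no longer called without 4OHT replicate 3 (0.0725). Against 4OHT+Fer1, 0 genes were called without 4OHT replicate 1 or 2, and 2, 1 and 1 genes without 4OHT+Fer1 replicate 1, 2 and 3, while leaving out all samples of replicate 1, 2 or 3 gave 0, 0 and 2. Col1a1 kept its call in 1 of the 14 fits that left out a single library, namely without ctrl replicate 3. The other 13 fits gave an edgeR adjusted p of 0.0583 to 0.22. None of the directions turned in these fits. Without the replicate number in the model, 0 genes were called against ctrl and 2 against 4OHT+Fer1 (Thbs1 and Vcan), and with only the compared groups in the fit 0 and 1. Against ctrl, the number of all genes called fell as well in these fits (given at the end). For the fits that left out samples, the share of all genes called is not given. A lost call therefore does not set the 33 genes apart.

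Whether the difference made by 4OHT depended on Ferrostatin-1 was tested as the contrast of 4OHT against ctrl with 4OHT+Fer1 against Fer1. By edgeR's quasi-likelihood test 0 of the 33 genes were called, beside 0.0311% of all genes. An unadjusted edgeR p under 0.05 was reached by 5 of the 33 and by 797 of all 12851 genes. DESeq2 called 4 of the 33, which were Vcan, Thbs1, Grem1 and Ccdc80, and its share of all genes is not given here. The difference of log2 fold changes was 2.30 for Vcan, 2.41 for Thbs1, 2.01 for Grem1 and -2.51 for Ccdc80, with edgeR adjusted p between 0.221 and 0.263. Without 4OHT replicate 3, Thbs1 (2.96, edgeR adjusted p = 0.00602) and Vcan (2.72, edgeR adjusted p = 0.0431) were called, and without ctrl replicate 3 Vcan was called (2.88, edgeR adjusted p = 0.0212).

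Between the supernatants without ferroptosis, no gene of the 33 was called. By edgeR's quasi-likelihood test 0 were called in 4OHT+Fer1 against ctrl (0.0311% of all genes), 0 in Fer1 against ctrl (0% of all genes) and 0 in 4OHT+Fer1 against Fer1 (0.0233% of all genes). The genes with an unadjusted edgeR p under 0.05 numbered 4, 6 and 0, beside 554, 146 and 266 of all 12851 genes. DESeq2 called 0 of the 33 in each. In 4OHT+Fer1 against ctrl those 4 were Col1a1, Sparc, Pcolce and Thbs1, with log2 fold changes of 0.78, 0.74, 1.14 and -0.86. Col1a1, Sparc and Pcolce were also among the 6 of Fer1 against ctrl (0.64, 0.68 and 1.20), beside Col1a2, Col4a1 and Col6a1. Within replicates, 14 of the 33 genes were higher in Fer1 than in ctrl in all 3 replicates and 0 were lower in all 3. In 4OHT+Fer1 against ctrl the numbers were 11 and 1. The same counts were not made over all genes, so that they do not set the 33 genes apart. The median log2 fold changes were 0.58 and 0.48, beside -0.0024 and 0.0284 over all genes. Both comparisons share the ctrl samples. The 5 tested fibroblast markers had medians of 0.64 and 0.62 in the same comparisons, with 0 called by edgeR (0 and 1 at an unadjusted p under 0.05), and their part was not tested.

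Fresh medium differed more. Of the 33 genes, 15 were called lower in ctrl than in medium (45.5%, against 7.79% of all genes), 8 in 4OHT+Fer1 (24.2%, against 7.21%), 6 in Fer1 (18.2%, against 7.21%) and 6 in 4OHT (18.2%, against 3.07%). The shares of all genes include calls in either direction. Of all 12851 genes, 474, 422, 409 and 211 were called lower in these comparisons. No gene of the 33 was called higher than in medium. Median log2 fold changes were -1.32, -0.79, -0.69 and -1.10, where all genes had -0.01, -0.02, -0.02 and 0.01. Cald1 and Tagln were called lower in all 4 comparisons. Vcan and Thbs1 were called lower in the 3 supernatants without ferroptosis, with log2 fold changes of -1.94 to -2.06 for Vcan and -1.93 to -2.80 for Thbs1. In 4OHT their log2 fold changes against medium were 0.38 (standard error 0.38) and -0.32 (standard error 0.41), with edgeR adjusted p of 0.735 and 0.812.

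Of the contractile genes, 4 of 6 were called lower in ctrl than in medium. Cald1 encodes caldesmon, which binds actin and tropomyosin. It had 75.6 and 22.7 CPM in medium, 25.4, 8.44 and 27.1 CPM in ctrl, 24.1, 7.5 and 47.6 CPM in Fer1, 32.2, 8.28 and 46.3 CPM in 4OHT+Fer1 and 37.1, 9.15 and 46.5 CPM in 4OHT. In replicates 1 and 2, each supernatant sample was below the medium sample of its number, although the groups overlapped because replicate 2 was low throughout. The log2 fold change in ctrl was -1.67 (standard error 0.21, edgeR adjusted p = 0.000406). Cald1 overlaps 3 genes on the opposite strand, Gm13861, Npn2 and Gm14547. Acta2, smooth muscle alpha-actin, had 66.5 and 16.3 CPM in medium, 17.3, 7.83 and 16.7 CPM in ctrl, 19.6, 6.67 and 65.2 CPM in Fer1, 12.9, 9.02 and 61.8 CPM in 4OHT+Fer1 and 22.6, 8.88 and 28.8 CPM in 4OHT. Among the supernatants, replicate 3 of Fer1 and of 4OHT+Fer1 came near medium replicate 1.

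The remaining contractile genes called in ctrl against medium were low. Tagln, which encodes transgelin, had 6.47 and 2.78 CPM in medium, 1.21, 0.603 and 1.54 CPM in ctrl, 1.39, 0.729 and 5.28 CPM in Fer1, 1.46, 1.17 and 3.99 CPM in 4OHT+Fer1 and 0.947, 0.906 and 4.55 CPM in 4OHT. Tpm2, a tropomyosin, had 16.4 and 5.56 CPM in medium, 3.44, 2.21 and 2.1 CPM in ctrl, 4.16, 3.33 and 10.8 CPM in Fer1, 2.72, 2.02 and 9.61 CPM in 4OHT+Fer1 and 7.68, 1.72 and 8.34 CPM in 4OHT. In both genes the 3 ctrl samples lay below both medium samples. Myl9, a myosin light chain, ranged from 0.313 to 11.9 CPM and was not called against medium. Pcsk7 overlaps Tagln on the opposite strand.

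Of the fibrillar collagen genes, 3 of 5 (Col1a1, Col1a2 and Col5a2) were called lower in ctrl than in medium. Col1a2, the alpha-2 chain of type I collagen, had 62.5 and 19.9 CPM in medium, 29.6, 10.1 and 25.6 CPM in ctrl, 36.9, 11.2 and 67.3 CPM in Fer1, 27.8, 7.75 and 45.8 CPM in 4OHT+Fer1 and 33.1, 9.69 and 27.8 CPM in 4OHT. Both type I collagen chains thus had their lowest value of each group in replicate 2. Col5a2, a chain of the type V collagen that nucleates fibrils, had 10.8 and 3.56 CPM in medium, 3.34, 1 and 2.87 CPM in ctrl, 4.76, 0.521 and 7.26 CPM in Fer1, 5.01, 1.27 and 3.68 CPM in 4OHT+Fer1 and 5.37, 1.36 and 3.79 CPM in 4OHT. The log2 fold changes of ctrl against medium were -1.17, -1.22 and -1.87 (edgeR adjusted p = 0.0159, 0.0141 and 0.0137). Col3a1 and Col5a1 ranged from 0.318 to 6.71 and from 0.502 to 6.95 CPM and were not called against medium. Pcolce, which enhances the cleavage of procollagen, had 3.81 and 1.22 CPM in medium and 1.01, 0.1 and 1.1 CPM in ctrl. Its levels were 1.29, 0.417 and 3.85 CPM in Fer1, 1.04, 0.637 and 3.27 CPM in 4OHT+Fer1 and 2.63, 0.543 and 3.92 CPM in 4OHT, and it was called lower in ctrl alone (log2 fold change -2.51). Fbxo24 overlaps Pcolce on the same strand. Lox and Loxl1, which crosslink collagen, ranged from 1.51 to 14.2 and from 0.331 to 5.93 CPM and were not called against medium.

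Col4a1, a chain of basement membrane collagen, had 7.74 and 3.78 CPM in medium, 2.83, 1.81 and 4.74 CPM in ctrl, 4.26, 3.75 and 7.37 CPM in Fer1, 4.6, 2.02 and 6.95 CPM in 4OHT+Fer1 and 3.26, 2.54 and 4.3 CPM in 4OHT, and was called lower in ctrl (log2 fold change -1.22, edgeR adjusted p = 0.025). Col4a2, its partner chain on the opposite strand, had 1.33 to 6.75 CPM and a log2 fold change of 1.19 in the same comparison, which was not called (edgeR adjusted p = 0.0917). The point estimates of the 2 chains had opposite signs, and a difference between them was not tested. The 3 collagen VI genes lay between 0 and 8.75 CPM and were not called against medium.

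Of the 6 matrix glycoprotein genes, 4 (Fn1, Mgp, Sparc and Thbs1) were called lower in ctrl than in medium. Fn1, fibronectin, had 26.1 and 10.1 CPM in medium, 10.1, 2.41 and 20.2 CPM in ctrl, 6.05, 4.69 and 31.8 CPM in Fer1, 12.9, 2.55 and 27.8 CPM in 4OHT+Fer1 and 15.9, 3.26 and 30.8 CPM in 4OHT. Its log2 fold change in ctrl was -1.75 (standard error 0.35, edgeR adjusted p = 0.00711), with replicate 3 of the supernatants as high as medium replicate 1 or higher in 3 of 4 groups. Sparc, a collagen-binding glycoprotein also known as osteonectin, had 68.3 and 24.2 CPM in medium, 27.8, 8.14 and 27.1 CPM in ctrl, 32.2, 10.1 and 74.2 CPM in Fer1, 27.8, 15.9 and 65.9 CPM in 4OHT+Fer1 and 32.2, 11.3 and 42.2 CPM in 4OHT. Mgp, which inhibits calcification, had 8.37 and 2 CPM in medium, 3.04, 0.603 and 2.32 CPM in ctrl, 1.39, 0.417 and 5.5 CPM in Fer1, 0.418, 0.212 and 4.7 CPM in 4OHT+Fer1 and 2.74, 0.362 and 7.84 CPM in 4OHT. In these 3 genes the group ranges overlapped, and the calls rest on differences at equal replicate number. Bgn, the proteoglycan biglycan, had 25.8 and 5.78 CPM in medium, 8.81, 2.21 and 8.38 CPM in ctrl, 7.04, 2.08 and 27.7 CPM in Fer1, 6.69, 4.77 and 21.7 CPM in 4OHT+Fer1 and 13.9, 3.26 and 19 CPM in 4OHT (log2 fold change in ctrl -1.77). Postn and Fbn1, of periostin and fibrillin-1, ranged from 0 to 4.73 and from 0.634 to 4.06 CPM and were not called against medium.

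Medium had no replicate 3, and its comparisons depended on the replicate number in the model. The following counts are of the 33 genes alone, without the share of all genes called in each fit. A lower count therefore does not set these genes apart. Without that term, 1 of the 33 genes was called in ctrl, 2 in 4OHT+Fer1, 2 in Fer1 and 0 in 4OHT. Without medium replicate 1 the counts were 4, 3, 2 and 0, and without medium replicate 2 they were 4, 2, 1 and 0. Other single libraries that moved a count by over 1.5 times were 4OHT+Fer1 replicates 1 and 2 (5 in 4OHT+Fer1 without either), Fer1 replicates 1 and 2 (3 in Fer1 without either), 4OHT replicate 1 (2 in 4OHT) and ctrl replicate 3 (10 in Fer1 and 12 in 4OHT). The summed fibroblast markers were 16.4 and 7.89 CPM in medium, 8.3, 4.62 and 8.38 CPM in ctrl, 9.81, 5.52 and 11.6 CPM in Fer1, 10.2, 4.14 and 13.6 CPM in 4OHT+Fer1 and 17.2, 4.62 and 14.9 CPM in 4OHT. In replicates 1 and 2 each supernatant sample was below the medium sample of its number, except 4OHT replicate 1, which was above it, and the ranges of all 4 supernatants overlapped with medium. Prrx1, a transcription factor of mesenchymal cells, was called lower than in medium in ctrl, 4OHT+Fer1 and Fer1 (log2 fold changes -2.14, -1.47 and -1.50). Neutrophil markers summed to 21.4 to 30.4 CPM in medium and to 2.21 to 16.2 CPM over the supernatants, without overlap. Megakaryocyte and platelet markers summed to 89.1 to 104 CPM in medium and to 176 to 413 CPM over the supernatants, also without overlap. Among these, Pf4 was called higher than in medium in each supernatant (log2 fold changes 1.03 to 1.79). The part of these cell types in the result was not tested.

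**Figure D2:**
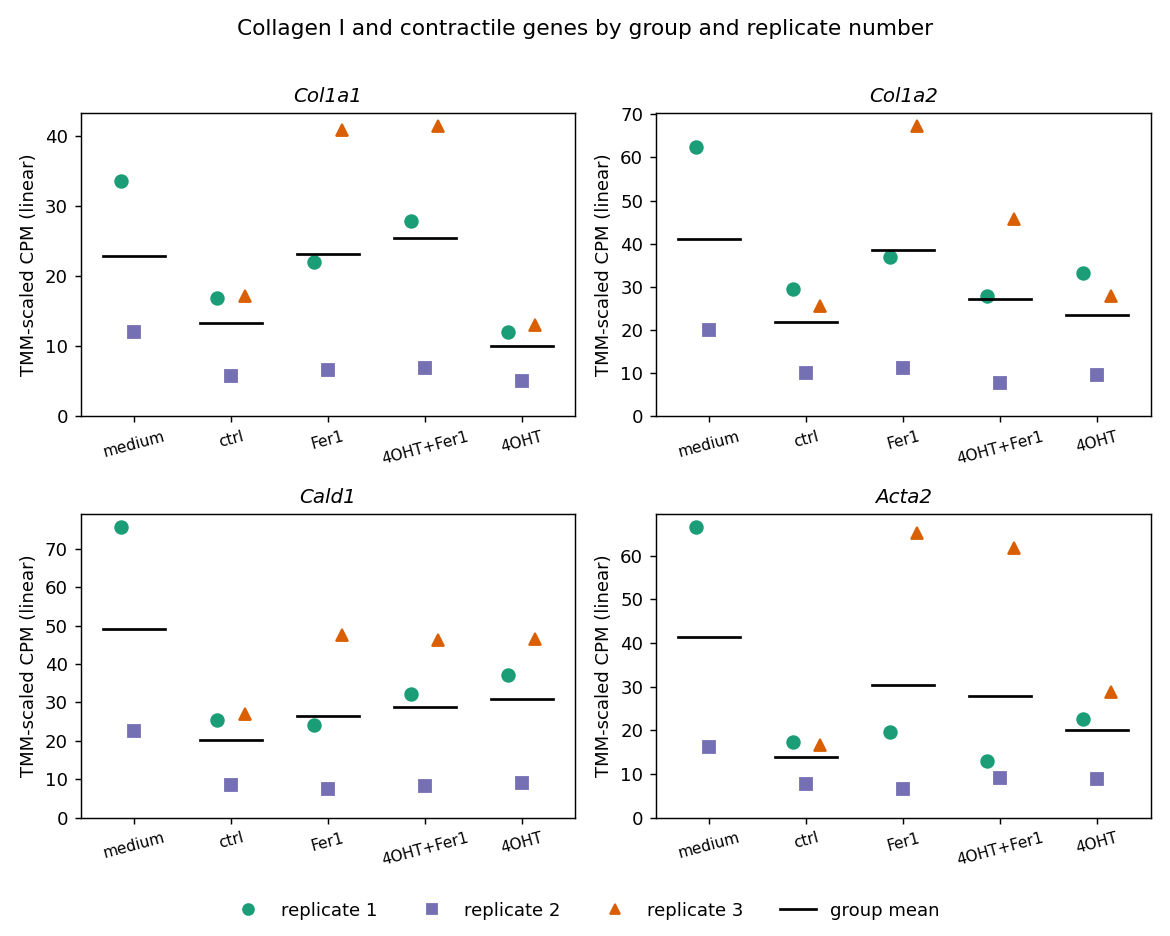
TMM-scaled CPM (linear axis from 0) of Col1a1, Col1a2, Cald1 and Acta2 in the 5 groups, with 1 point per sample, colour and shape for the replicate number, and a line at the group mean. The square of replicate 2 is the lowest point in each group and panel (5.07 to 22.7 CPM), and medium replicate 1 and the replicate 3 samples of Fer1 and 4OHT+Fer1 are the high points.

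Most of the 33 genes differed with the replicate number, which was taken as the mouse. Comparisons between replicate numbers were added after the values had been seen, in the same fit over all 14 samples. As each number was taken as a single mouse, their p-values measure the spread between samples and not between mice. In replicate 3 against replicate 2, 26 of the 33 genes were called higher (78.8%, against 4.92% of all genes called in either direction) and none lower, and all 33 log2 fold changes were positive, with a median of 2.05 beside -0.01 over all genes. In replicate 2 against replicate 1, 10 genes were called lower (30.3%, against 0.412% of all genes in either direction). In replicate 3 against replicate 1, 4 were called higher (12.1%, against 5.71% in either direction). Replicate 2 had the lowest value of the group in all 5 groups for 23 of the 33 genes, and the same held for 1.77% of all genes tested.

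All 5 fibrillar collagen genes and all 3 collagen VI genes were called higher in replicate 3 than in replicate 2, as were 5 of 6 contractile genes and 5 of 6 matrix glycoprotein genes. For Col1a1 and Col1a2 the log2 fold changes were 2.05 and 2.03 (standard error 0.21 and 0.22), and for Cald1 and Acta2 they were 2.30 and 2.40 (standard error 0.17 and 0.35). Mgp and Col6a2 had the highest values, 3.66 and 3.60, at levels of at most 8.37 and 6.16 CPM. The edgeR adjusted p of these 6 genes lay between 3.28e-05 and 0.00278. Igfbp7, which binds insulin-like growth factors, had 1.21 to 21.6 CPM and was called lower in replicate 2 than in replicate 1 (-2.61) and higher in replicate 3 than in replicate 2 (2.82). Fstl1, a secreted follistatin-like glycoprotein, had 2.08 to 14.2 CPM and was called in replicate 3 against 2 (1.90).

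The 7 tested genes not called in that comparison were Igfbp4, Tpm1, Thbs1, Vcan, Col4a2, Serpinf1 and Loxl1. Vcan and Thbs1, which differed between the supernatants, had log2 fold changes of 0.65 (standard error 0.31) and 0.32 (standard error 0.33) between replicates 3 and 2. In both genes, replicate 2 was the lowest sample of ctrl, Fer1 and 4OHT+Fer1. It had 2.31, 3.13 and 2.97 CPM for Vcan and 17.5, 14.9 and 7.75 CPM for Thbs1. In medium and 4OHT, replicate 2 was the highest sample of both genes. The medium values were 14.1 and 16.3 CPM for Vcan and 74.6 and 84 CPM for Thbs1. Serpinf1, which encodes the secreted factor PEDF, ranged from 1.15 to 7.67 CPM. Grem1 and Ccdc80 moved with both the supernatant and the replicate number, with log2 fold changes of 2.04 and 1.82 between replicates 3 and 2.

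**Figure D3:**
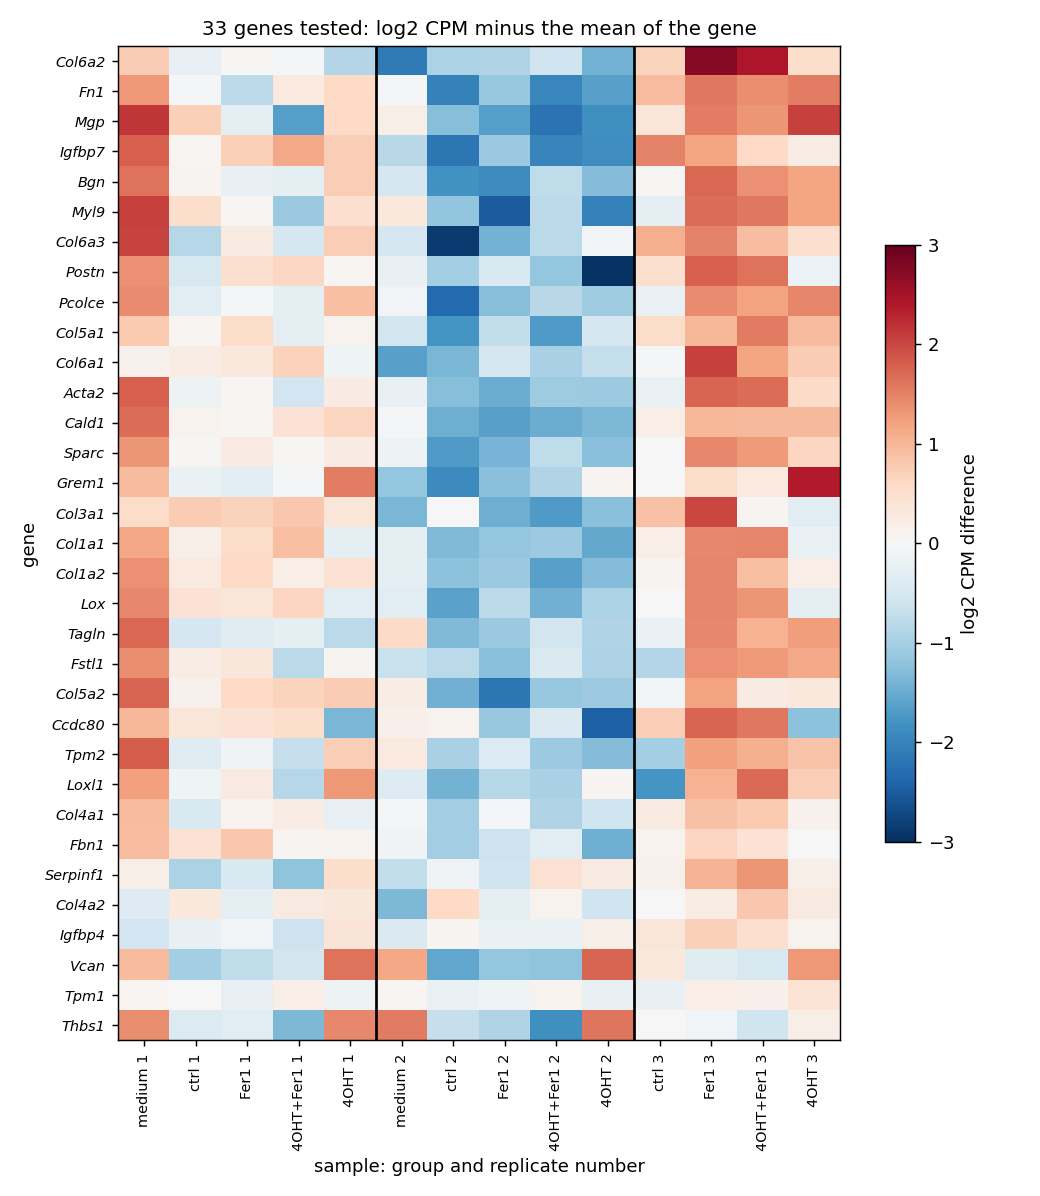
Colour map of log2 CPM minus the mean of the gene over the 14 samples for the 33 genes tested (rows, ordered by the difference of replicate 3 from replicate 2) and the samples ordered by replicate number (columns, with lines between the numbers). The 5 columns of replicate 2 are blue in most rows, while Vcan and Thbs1 near the bottom are red in both medium columns and in the 4OHT columns of replicates 1 and 2.

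Markers of other cells also differed between the replicate numbers. The summed fibroblast markers were 4.14 to 7.89 CPM in the 5 samples of replicate 2, 8.3 to 17.2 CPM in replicate 1 and 8.38 to 14.9 CPM in replicate 3, without overlap between replicate 2 and the others. Of the 5 tested, Cdh11, Prrx1 and Snai2 were called higher in replicate 3 than in replicate 2. The smooth muscle and pericyte markers summed to 0.632 to 3.68 CPM over all samples, with 1 of 7 tested and Des at 0. The marrow stroma and osteoblast markers summed to 20 to 37.6 CPM with Lepr at 0, and their range in replicate 2 (22.4 to 37.6 CPM) overlapped with that in replicate 3 (24.4 to 32.7 CPM). Neutrophil markers went the other way, with 5.33 to 21.4 CPM in replicate 1, 8.13 to 30.4 CPM in replicate 2 and 2.21 to 3.41 CPM in replicate 3. Endothelial markers were also lowest in replicate 3, with 12.5 to 15.1 CPM beside 22 to 39.2 CPM in replicate 2 and 30.5 to 58.9 CPM in replicate 1, and Kdr, a receptor for vascular endothelial growth factor, was called lower in replicate 3 than in replicate 1 (-1.66) and replicate 2 (-1.02). The mitochondrial share of counts was 8.5% to 10.6% in the 4 samples of replicate 3 and 4.53% to 7.77% in the others, without overlap. The part of these cell types and of the mitochondrial share in the result was not tested, and the mouse and any other step that shared its number cannot be told apart.

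The count in replicate 3 against 2 stayed between 19 and 27 when a replicate or a library was left out. The other 2 counts also varied. These counts are of the listed genes alone, without the share of all genes called in each fit. A changed count therefore does not set the listed genes apart. In replicate 2 against 1, 6 genes were called without ctrl replicate 2 and without medium replicate 1, and 5 without 4OHT replicate 1, while DESeq2 called 18. In replicate 3 against 1, 9 were called without ctrl replicate 3, 1 without Fer1 replicate 1, Fer1 replicate 3 or 4OHT replicate 1, and 2 without 4OHT+Fer1 replicate 1 or 3.

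**Figure D4:**
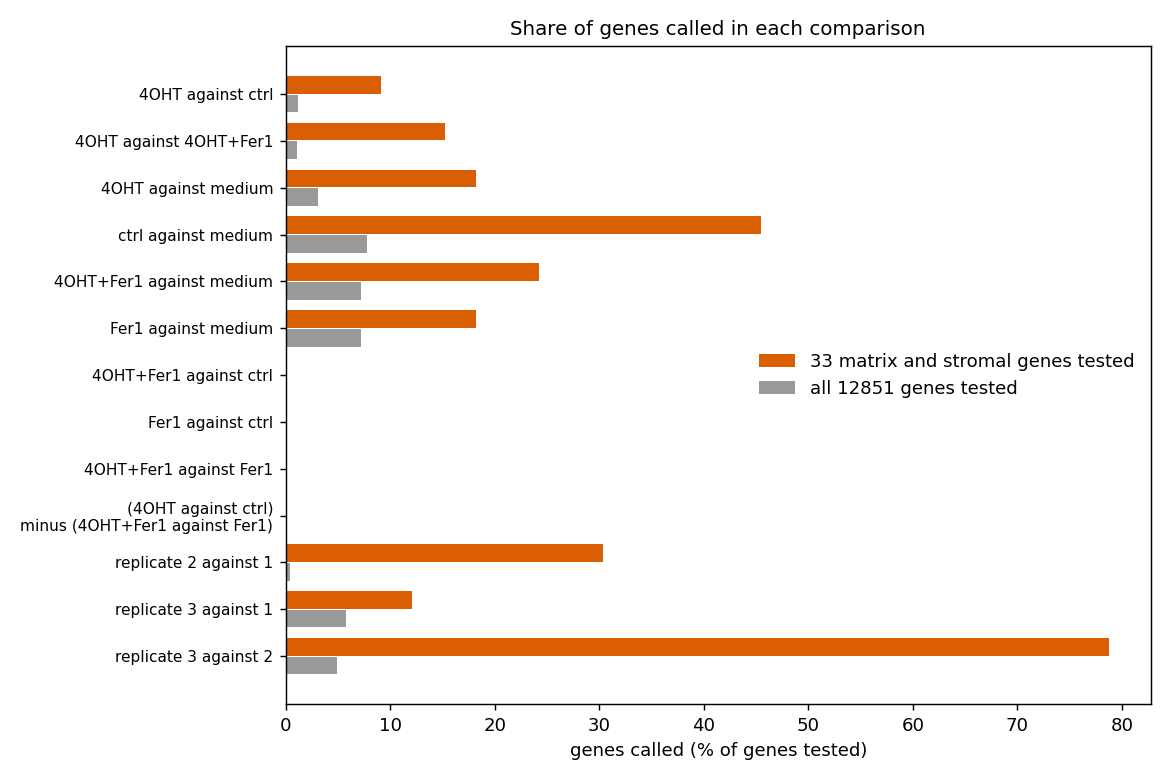
Percent of genes called in 13 comparisons, for the 33 matrix and stromal genes tested (orange) and for all 12851 genes tested (grey), with bars that start at 0 and no error bars. The highest orange bars are those of replicate 3 against 2 (78.8%) and of ctrl against medium (45.5%), and the grey bars do not exceed 7.79%.

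Other genes of the matrix were taken from fixed lists. Of all 12851 genes tested, 1.11% were called in 4OHT against ctrl in either direction. The shares were 7.79% in ctrl against medium and 4.92% in replicate 3 against 2. The lists were not tested against these shares. Of 14 tested enzymes of collagen processing, 0 were called by edgeR's quasi-likelihood test in 4OHT against ctrl (1 at an unadjusted p under 0.05), and Serpinh1, the collagen chaperone HSP47, was lower in 4OHT, ctrl and 4OHT+Fer1 than in medium (log2 fold changes -2.01, -1.57 and -1.72). Serpinh1 and Loxl2 were the 2 of the 14 called higher in replicate 3 than in replicate 2. Of 12 other collagen and basement membrane genes, 6 were called higher in replicate 3 than in replicate 2, among them Col12a1 (3.64) and Col8a1 (2.03), while in ctrl against medium 3 were lower (Col8a1, Hspg2 and Lamb1) and Lamc1 was higher. Of 11 other matrix glycoprotein genes, Spp1, which encodes osteopontin, was the 1 called in 4OHT against ctrl (-1.81). Spp1 and Tgfbi, of an integrin-binding matrix protein, were higher in each supernatant than in medium, with log2 fold changes of 2.21 to 4.02 for Spp1 and 1.20 to 2.05 for Tgfbi, while Tnc, of tenascin-C, was lower in each (-1.98 to -2.86). Of 18 matrix receptors, Itga6 was the 1 called in 4OHT against ctrl (-1.08). In ctrl against medium 5 were called, with Itga6, Itgb3 and Mrc1 higher and Itga4 and Sdc1 lower. Mrc1, a collagen uptake receptor, and Itgb3, an integrin chain that binds vitronectin, were called higher than in medium in each supernatant (1.93 to 2.27 and 1.06 to 1.49). Of 19 other actin and contractile genes, 2 were called in ctrl against medium (Cnn1 and Myh10, lower) and 1 in replicate 3 against 2 (Actg2, higher).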

How the data were processed

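Total RNA of 14 pBMDM samples was sequenced from the 3′ end (QuantSeq). Reads were aligned with STAR 2.7.10a and quantified with Salmon 1.5.2, per the submitters' processing notes, and the authors deposited estimated counts (expected counts) per gene, without normalization. The notes list GRCh38 and GRCm38, the paper names a human genome, and the identifiers are of mouse genes. The authors' table of comparisons, which holds log2 fold changes with p-values (raw, adjusted and recomputed by fdrtool), was not used, nor were its 14 columns of per-sample CPM.

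Expected counts were rounded to whole numbers (30109 values were not whole, and the plan had assumed counts), scaled by TMM (factors 0.91 to 1.06) and fitted with edgeR 4.0.16 (limma 3.58.1, R 4.3.3) over all 14 samples with group and replicate number. Genes passed filterByExpr with a minimum count of 10. Standard errors were computed as the log2 fold change over the root of F. Within-replicate differences of log2 CPM used a prior count of 2. No pair of replicates within a group was alike within sampling noise (chi-square per degree of freedom 11.1 to 82 in 13 pairs), and mitochondrial genes took 4.53% to 10.6% of counts.

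The study's design had mouse ID, and the replicate number in the titles was taken as the mouse, which the labels do not state. Deviations from group means correlated at 0.00346 to 0.645 (median 0.247) in 26 sample pairs of equal number and with a median of -0.139 in 52 pairs of other numbers. Separate cultures are not stated beyond the number, so that p-values measure the spread between these samples.

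All 38 genes are accounted for. Values in every sample are given for those called in a comparison of groups or at 10 CPM or more, others by range. Genes outside the list are named from fixed lists if called, or as defining markers. Members and lists were chosen with earlier results of these data known. Alternatives were DESeq2 1.42.0, its size factors, no filter, no replicate block, only the groups compared, no fold threshold and each replicate left out, and, added after the data were seen, each library left out, the medium samples left out and the comparisons of replicate numbers. Scripts were tested on simulated data. Gene positions and overlaps are from GENCODE M21 on GRCm38.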

Additional observations from a re-analysis of the deposited data

Results flagged for a closer look

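Thbs1 was flagged because every replicate moved up in 4OHT against ctrl and down in 4OHT+Fer1 against Fer1. The difference of the log2 fold changes was 2.41 (standard error 0.55), with an unadjusted edgeR p of 0.000794 and an edgeR adjusted p of 0.251, so that the difference was not called. Over the 22 alternatives it lay between 1.91 and 3.10 and was called in 4 of them. Those were DESeq2, no filter on low counts, without replicate 3 and without 4OHT replicate 3.

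Col1a1 was flagged for the opposite pattern, down in each replicate of 4OHT against ctrl and up in each replicate of 4OHT+Fer1 against Fer1. The difference of the log2 fold changes was -0.50 (standard error 0.34, edgeR adjusted p = 0.974) and was called in none of the 22 alternatives, where it lay between -0.77 and -0.30 with adjusted p from 0.618 upward.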

How the results depend on the processing

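Alternatives for single genes were run for called values, for the tests of dependence on Ferrostatin-1 of Vcan, Thbs1, Grem1, Ccdc80 and Col1a1 and for Thbs1 in 4OHT against ctrl, not for the other uncalled values. Over these genes and alternatives, 1461 values kept their side of the threshold, 362 lost the call, 15 gained it and none changed sign. Without the replicate block, the called genes of the list numbered 0 in 4OHT against ctrl, 2 against 4OHT+Fer1 and 0 against medium, and 1, 2 and 2 in ctrl, 4OHT+Fer1 and Fer1 against medium. The lowest correlation between samples of equal number was 0.00346, and a call lost without the block is no measure of a weaker effect. With only the groups compared, they numbered 0 in 4OHT against ctrl, 1 against 4OHT+Fer1, 13 against medium and 14 in Fer1 against medium. DESeq2 called 10 in 4OHT against medium, 4 in the test of dependence on Ferrostatin-1 and 18 in replicate 2 against 1. Without a filter on low counts, 11 were called in 4OHT against medium and 2 in the test of dependence. Without the medium samples, 6 were called in replicate 2 against 1. The numbers of all genes called under these alternatives are given below for 4OHT against ctrl and not for the other comparisons. The cause of these shifts was not tested, beyond the smaller number of samples or the larger number of genes in the fit.

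With a replicate or a library left out, counts ranged from 0 to 4 in 4OHT against ctrl, 0 to 5 against 4OHT+Fer1 and 0 to 12 against medium. They ranged from 0 to 18 in ctrl, 0 to 11 in 4OHT+Fer1 and 0 to 11 in Fer1 against medium, and from 0 to 2 in the test of dependence. Between replicate numbers they ranged from 5 to 12 (2 against 1), 1 to 9 (3 against 1) and 19 to 27 (3 against 2). The numbers of all genes called with samples left out are not given. All genes called numbered 143 in 4OHT against ctrl, 276 by DESeq2, 259 without the filter, 6 without the block and 0 with only the groups compared.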
